A study of Mus musculus with 52 samples.

Results

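The EGR and IER immediate early genes measured here are 7 listed symbols, the transcription factor genes Egr1, Egr2 and Egr3 and the immediate early response genes Ier2, Ier3, Ier5 and Ier5l. All 7 had a row in the table of haematopoietic stem cells (HSC), which holds 13566 genes, and in the table of bone marrow stroma, which holds 15168. Mice were injected with an agonist of prostaglandin E receptors or with vehicle 30 min before total-body irradiation (TBI) with 853 cGy, and marrow was taken 1 h after irradiation. The agonists were sulprostone, which acts on the receptor EP3, rivenprost, which acts on EP4, both of these together, and misoprostol, a prostaglandin E1 analogue. HSC were taken from those 4 groups and from vehicle mice, all irradiated, and were sorted as lineage-negative, Kit-positive, Sca-1-positive cells with the SLAM profile. Stroma, enriched with magnets for cells without CD45 and Ter119, was taken from the same 5 treatments, and from a dmPGE2 group, dmPGE2 being a long-lived form of prostaglandin E2. Vehicle and dmPGE2 were also given to mice that were not irradiated. The name dmPGE2 comes from the series title, since group labels have only PGE. There were 13 groups of 4 mice (2 of each sex), and every mouse gave a single library. No source used here states the doses of the agonists, and values of different compounds are set side by side at unknown relative doses. HSC have no non-irradiated group, so irradiation could be compared in stroma alone.

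EGR proteins are zinc-finger transcription factors whose genes are switched on within minutes of a stimulus, without new protein synthesis. The usual route runs from growth factor or G-protein-coupled receptors through the kinase ERK to serum response factor (SRF) and its ternary complex partners, and a cAMP route runs through CREB. NAB1 and NAB2 bind EGR proteins and restrain them, and EGR1 is known in mice for holding HSC in a resting state and in the niche. The IER genes share the rapid induction and not a common protein fold. IER2, IER5 and IER5L share a conserved amino-terminal region, while IER3, also called IEX-1, is an unrelated small protein that modulates cell death after stress and irradiation. IER5 is induced by ionising radiation, and in human cells it is a p53 target that promotes the activity of the heat shock factor HSF1.

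Library totals, in units of 1e6 counts, ran from 27.4 to 49.2 in HSC (median 40.8) and from 38.0 to 73.7 in stroma (median 55.6). Levels are given as CPM, counts per 1e6 counts after scaling library sizes by the TMM method, as mean ± SD over the 4 mice. Tests are edgeR's quasi-likelihood tests on the counts, with all groups of a cell fraction and sex in the model. A gene is said to have risen or fallen where its Benjamini-Hochberg adjusted p over all genes was under 0.05. HSC markers were present, with Kit at 186.4 to 806.4 CPM and Hlf, a stem cell transcription factor, at up to 257.8 CPM, while Cxcl12 of stromal cells was at 0 in 6 of 20 libraries and reached 48.8 CPM. Other markers listed for stroma, Vcam1 at 17.4 to 313.2 CPM (median 46.7) and Pdgfrb at up to 24.8 CPM, were detected in all 20 HSC libraries. Vcam1 was listed as a marker of monocytes and macrophages as well, and its highest value came from sulprostone replicate 1. Sulprostone replicate 1 stood apart among HSC, with the summed granulocyte markers at 12780 CPM against at most 726.5 in the other libraries. Stroma held Cxcl12 at 3139 to 16920 CPM, and it also held Ptprc, which encodes CD45, at 70.4 to 294.1 CPM, so blood cells remained in that fraction. In bulk RNA of either fraction, fewer cells of a type and less RNA per cell cannot be told apart.

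Levels of different genes were compared per kb of the gene length in the files, within a group. In vehicle HSC the order from high to low was Ier2 (303.2 ± 70.2 CPM per kb), Ier3 (145.4 ± 24.3), Ier5 (107.5 ± 17.97), Egr1 (37.6 ± 21.9), Ier5l (7.07 ± 4.16), Egr2 (0.218 ± 0.436) and Egr3 (0.0918 ± 0.136). The 4 libraries of Ier3 and Ier5 overlapped, as did those of Egr2 and Egr3, and the other neighbours in that order were apart. In non-irradiated vehicle stroma, Ier2 led with 47.5 ± 22.9 CPM per kb, and Egr1 (40.6 ± 25.9) and Ier3 (21.5 ± 8.95) followed with overlapping libraries. Ier5 stood at 13.5 ± 1.37 CPM per kb there, its libraries overlapping those of Ier3 and clear of the low genes Ier5l (1.43 ± 0.625), Egr2 (0.665 ± 0.227) and Egr3 (0.563 ± 0.128). Egr1 was thus the abundant EGR gene in both fractions, and Ier5l the low IER gene. In irradiated vehicle stroma Egr1 (76.6 ± 37.2 CPM per kb) and Ier2 (71.8 ± 13.7) led with overlapping libraries. The kits and tables of the fractions differ, so no level was tested between them.

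**Figure D1:**
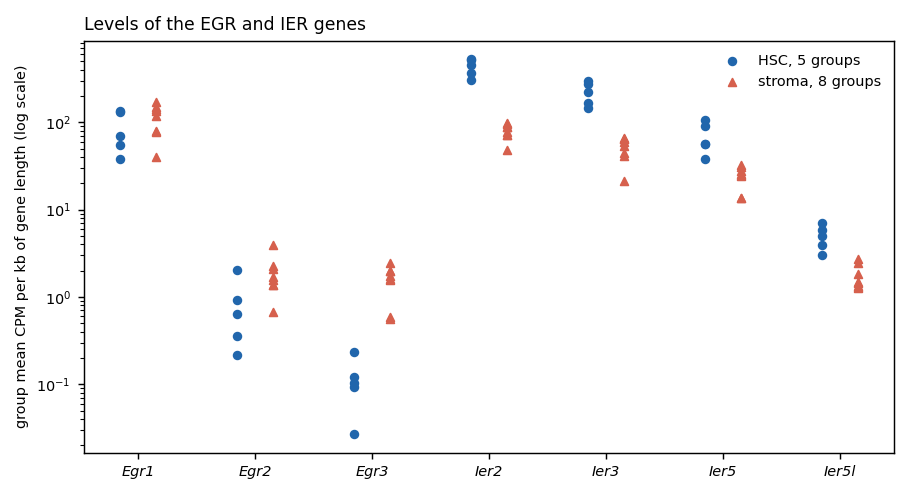
Group means of the 7 genes in CPM per kb of gene length, on a log scale, for the 5 HSC groups (circles) and the 8 stroma groups (triangles). Egr2, Egr3 and Ier5l lie far below the other 4 genes in both fractions, and Ier2 is at the top in HSC.

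The IER genes moved in both directions in HSC. With both agonists, Ier3 and Ier2 rose and Ier5 fell against irradiated vehicle, 3 of the 7 genes where 0.545% of all genes tested passed. After misoprostol Ier3 rose, 1 of 7 against a background of 0.251%. After rivenprost alone none of the 7 passed (0.494% of all genes did). An unadjusted p under 0.05 was found for 3 of the 7, and for 868 of all 13566 genes. DESeq2 called Ier3 and Ier5 where it called 1.8% of all genes. After sulprostone none passed, none had an unadjusted p under 0.05 and DESeq2 called none, where 0.0147% of all genes passed in edgeR and 0.855% in DESeq2.

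Ier3 lies on chromosome 17 (mm10, 35821713 to 35822911, plus strand, 2 exon rows in the files). In vehicle HSC its libraries held 130.7, 152.5, 156.4 and 194.5 CPM. With both agonists they held 287.5, 307.6, 319.2 and 364.7 CPM, each above every vehicle library. The mean was 319.7 ± 32.7 CPM against 158.5 ± 26.5, so Ier3 rose by 1.01 on the log2 scale with an SE of 0.16 (adjusted p = 0.00184). After misoprostol the libraries held 245.4, 253.2, 313.1 and 373.2 CPM, again all above vehicle (296.2 ± 59.6, a log2 rise of 0.90 at an adjusted p of 0.00961). The misoprostol call was lost without misoprostol replicate 1, vehicle replicate 3 or vehicle replicate 4, where the adjusted p reached 0.0648. Rivenprost gave 208.5, 233.5, 266.6 and 271 CPM, also clear of vehicle, with a log2 difference of 0.63 (95% interval 0.30 to 0.96, adjusted p = 0.114). Sulprostone gave 161.6 to 203.1 CPM, overlapping vehicle, and the 95% interval of its log2 difference ran from -0.12 to 0.54. The authors' deposited table lists Ier3 at an FDR of 4.56e-06 for both agonists, 0.000174 for misoprostol and 0.0440 for rivenprost.

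Ier5, a gene of 1 exon on chromosome 1 (155096367 to 155099636, minus strand), had 305.2, 328, 335.7 and 437.6 CPM in the vehicle libraries. With both agonists the libraries held 91.8, 108.2, 141.9 and 156.6 CPM, so the highest of them was below the lowest vehicle library. Ier5 fell from 351.6 ± 58.8 to 124.6 ± 29.8 CPM, which is -1.49 on the log2 scale with an SE of 0.23 (adjusted p = 0.00197). Rivenprost libraries held 143.2, 178.3, 196.2 and 217 CPM, all below vehicle, with a log2 difference of -0.94 (95% interval -1.42 to -0.46, adjusted p = 0.101). Misoprostol libraries held 131.5, 152.7, 197.7 and 265.1 CPM, all below vehicle too, with a log2 difference of -0.90 (-1.38 to -0.41, adjusted p = 0.200). Sulprostone overlapped vehicle at 185.2 to 406.8 CPM. Ier5 in the authors' deposited table has an FDR of 2.2e-06 for both agonists, 0.0286 for rivenprost and 0.0552 for misoprostol.

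The promoters of these members that moved oppositely in the same mice are shown with RefSeq sequence of build GRCm38.p6, the 250 bases before the annotated start, printed 5′ to 3′ on the strand of the gene. Capitals mark matches to 7 searched motifs on either strand. The windows are chr17:35821463-35821712 on the plus strand for Ier3 and chr1:155099637-155099886 on the minus strand for Ier5.
Ier3: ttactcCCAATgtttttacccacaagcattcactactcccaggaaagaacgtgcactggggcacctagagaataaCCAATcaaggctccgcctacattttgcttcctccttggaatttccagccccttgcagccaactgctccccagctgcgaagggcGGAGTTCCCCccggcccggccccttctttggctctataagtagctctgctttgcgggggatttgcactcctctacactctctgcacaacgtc
Ier5: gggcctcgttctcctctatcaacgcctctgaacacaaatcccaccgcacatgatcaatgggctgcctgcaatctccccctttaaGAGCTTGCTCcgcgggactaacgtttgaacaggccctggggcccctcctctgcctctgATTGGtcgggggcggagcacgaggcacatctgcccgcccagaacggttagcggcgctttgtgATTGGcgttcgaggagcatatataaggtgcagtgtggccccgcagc
Both windows hold 2 matches to the CCAAT box (CCAAT), which 33.9% of 32841 such windows hold. In Ier3 a match to the NF-kB site lies 92 to 83 bases before the start, a motif in 3.9% of windows. In Ier5 a match to the p53 half-site lies 166 to 157 bases before the start, a motif in 7.13% of windows. Neither window holds the cAMP response element TGACGTCA (1.55% of windows), its half-site TGACG (17.8%), the CArG box that SRF binds (1.47%) or the heat shock element GAANNTTC (6.7%). Windows were read for 4 of the 7 genes, and the promoters of Egr1, Egr3 and Ier2 were not examined. Of the windows not printed, some of Egr2 hold matches to the CArG box, the half-site TGACG and the CCAAT box. The window of Ier5l holds matches to the heat shock element and the CCAAT box. A match of letters is a description and not a site of binding.

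Ier2, a gene of 1 exon on chromosome 8 (84661331 to 84662852, minus strand), was the member with the highest level per kb in HSC. Its vehicle libraries held 309.3, 466.6, 524 and 545.9 CPM. With both agonists they held 722.4, 738.3, 764.4 and 964.2 CPM, all above vehicle, and Ier2 rose from 461.5 ± 106.8 to 797.3 ± 112.6 CPM. The log2 fold change was 0.79 with an SE of 0.17 and an adjusted p of 0.0394. This call rests close to the threshold. It held without vehicle replicate 2 (adjusted p = 0.0169) and ended when any other of the 8 libraries compared was left out, up to an adjusted p of 0.161. It also ended in a fit of both groups alone (adjusted p = 0.166). Misoprostol gave 677.8, 742.5, 839.9 and 916 CPM, a mean of 794.1 ± 105, with a log2 difference of 0.79 (adjusted p = 0.0705), and rivenprost gave 564.6 to 871.6 CPM (0.58, adjusted p = 0.278). In both groups every library was above every vehicle library.

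Egr1 (chromosome 18, 34861207 to 34864956, plus strand, 2 exon rows) varied more between mice of a group. Vehicle libraries held 54.8, 65.7, 144.3 and 196.7 CPM. With both agonists Egr1 stood at 209, 304.2, 489.7 and 652 CPM, each above the highest vehicle library, with means of 413.7 ± 197 against 115.4 ± 67.3 CPM. The log2 difference of 1.85 (SE 0.45) missed the threshold at an adjusted p of 0.0761, and it passed without vehicle replicate 1 or without replicate 1 of both agonists (lowest adjusted p 0.0303). After misoprostol the libraries held 194.9, 353.1, 450.6 and 601.3 CPM, and the lowest of them lay just under the highest vehicle library (log2 difference 1.77, adjusted p = 0.180). DESeq2 called Egr1 higher in both comparisons (adjusted p = 0.0125 and 0.0247), where it called 2.22% and 1.86% of all genes, as the authors' deposited table does for both agonists (FDR 0.00566) and for misoprostol (FDR 0.0134). Sulprostone (211.2 ± 96.2 CPM) and rivenprost (167.2 ± 68.9 CPM) overlapped vehicle, with 95% intervals of the log2 difference from -0.00118 to 1.83 and from -0.37 to 1.44.

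The remaining members were low in HSC. Egr2 (chromosome 10, 67537869 to 67542188, plus strand) had 0 counts in 7 of 20 HSC libraries, among them 3 of 4 vehicle libraries, and reached 18.1 CPM in 1 library of both agonists. Egr3 (chromosome 14, 70077445 to 70082613, plus strand) had 0 counts in 10 of 20 HSC libraries and at most 2.65 CPM. No change of Egr2 or Egr3 was detectable at these counts, and the 95% interval of the log2 difference with both agonists ran from -2.63 to 9.15 for Egr2. Ier5l (chromosome 2, 30472641 to 30474199, minus strand) was detected in all 20 HSC libraries, at 2.01 to 17.1 CPM. Its mean was 11.02 ± 6.48 CPM with vehicle and 4.69 ± 2.03 with both agonists (log2 difference -1.26, 95% interval -2.68 to 0.16, adjusted p = 0.790).

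**Figure D2:**
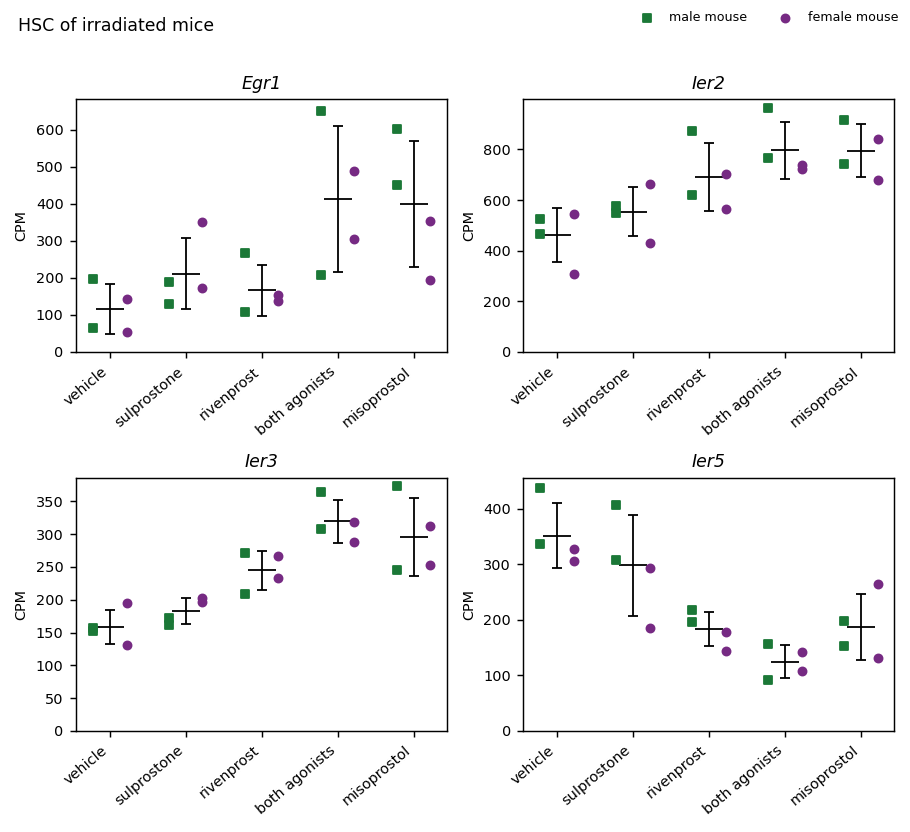
CPM of Egr1, Ier2, Ier3 and Ier5 in each HSC library of irradiated mice, with squares for male and circles for female mice, a horizontal tick for the group mean and bars of 1 SD. With both agonists the 4 libraries of Egr1, Ier2 and Ier3 lie above all vehicle libraries, and those of Ier5 lie below.

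**Figure D3:**
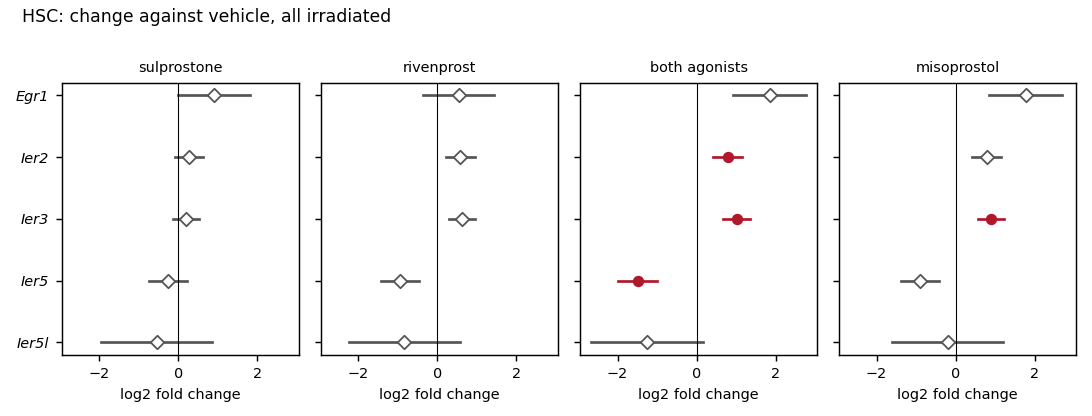
Log2 fold changes of 5 members against vehicle in HSC with 95% intervals, filled red where the adjusted p is under 0.05 and open where it is not. Ier3 passes with both agonists and with misoprostol, Ier2 and Ier5 with both agonists alone, and no member passes with sulprostone or rivenprost.

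Direct comparisons of the agonist groups in HSC covered 6 pairs and 42 member tests. Of these, 2 passed in edgeR, and 14 had an unadjusted p under 0.05, as did 372 to 864 of all 13566 genes per pair. DESeq2 called 3, Ier3 and Ier5 for both agonists against sulprostone and Ier3 for misoprostol against sulprostone, where it called 1.72% and 1.32% of all genes. In the other pairs it called none of the 7, where 1.32% of all genes passed for rivenprost against sulprostone, 0.464% for both agonists and 0.604% for misoprostol against rivenprost and 0.877% for misoprostol against both agonists. Over all genes 0.332% passed for rivenprost and 0.0369% for misoprostol against sulprostone, and 0% in the 3 pairs without sulprostone. The calls were of both agonists against sulprostone, where 0.243% of all genes passed. Ier3 stood at 319.7 ± 32.7 against 183.4 ± 19.7 CPM (log2 fold change 0.80, adjusted p = 0.0301), a call that ended when any 1 of the 8 libraries was left out (adjusted p 0.0561 to 0.145). Ier5 stood at 124.6 ± 29.8 against 298.1 ± 90.7 CPM (-1.24, adjusted p = 0.0256), and that call held in 4 of 8 such fits, ending without sulprostone replicate 2 or 3 or without replicate 3 or 4 of the combined agonists. Sulprostone replicate 1, vehicle replicate 2 and misoprostol replicate 2 are 3 libraries that an earlier analysis of these data had found apart. Granulocyte markers were high in sulprostone replicate 1, as given above. Vehicle replicate 2 and misoprostol replicate 2 had granulocyte sums of 252.1 and 324.4 CPM and the fewest genes detected (11726 and 11679). In a fit without these 3 libraries, the log2 difference of both agonists against sulprostone was 0.77 for Ier3 (adjusted p = 0.0784), and the call of Ier5 held (adjusted p = 0.0143). Both agonists and rivenprost differed in Ier5 by -0.55 on the log2 scale (95% interval -1.03 to -0.06) and in Ier3 by 0.39 (0.06 to 0.71), and neither passed. Misoprostol and both agonists differed by -0.11 in Ier3 (-0.44 to 0.22), by 0.59 in Ier5 (0.11 to 1.07) and by -0.08 in Egr1 (-0.98 to 0.82), and none passed, which does not show that they act alike. The departure from additivity of the EP3 and EP4 agonists passed for none of the 7 in edgeR or DESeq2 (0% and 0.781% of all genes), and none had an unadjusted p under 0.05. Its interval for Ier5 was -0.98 to 0.38 and that for Ier3 -0.29 to 0.64.

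Markers of other cells were read in the same HSC groups. With both agonists, 10 of the 11 marker sums overlapped those of vehicle. The exception was the mesenchymal stroma list, of which 5 of 9 genes were in the table, without Lepr, Pdgfra, Ebf3 and Foxc1. Its sum was 34.9 to 53.2 CPM with both agonists and 67.2 to 89.4 CPM with vehicle, and its part in the results was not tested. After rivenprost the same list summed to 47.4 to 64.6 CPM, below all vehicle libraries. Vcam1 of that list, also on the monocyte and macrophage list, had a median of 46.7 CPM over all HSC libraries. The pan-haematopoietic sum was 459.6 to 570.9 CPM after rivenprost and 432.3 to 628.1 CPM after sulprostone, above 367.3 to 428.8 CPM with vehicle. The part of these markers in the values of Ier3, Ier5 and Nab2 after rivenprost was not tested. After misoprostol all 11 sums overlapped those of vehicle. Without the 3 libraries named above as found apart, the changes with both agonists were 1.15 for Ier3, 0.95 for Ier2 and -1.44 for Ier5 on the log2 scale, and all 3 passed.

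Other genes of the response were read from lists. Of 38 other immediate early genes 34 were in the HSC table, and with both agonists 10 rose and 1 fell, with a median log2 fold change of 1.05 against -0.002 over all genes. Socs3, an inhibitor of cytokine signalling, rose by 5.31, the AP-1 gene Fos from 14.0 to 305.8 CPM (4.49), the nuclear receptor gene Nr4a1 by 3.53 and the phosphatase gene Dusp1 by 2.33. The gene that fell was Jun, named after its values were seen, from 335.9 to 111.8 CPM (-1.58, adjusted p = 0.00385), so Jun and Ier5 fell in mice where Fos, Ier2 and Ier3 rose. Of 25 p53 target genes 4 fell and 0 rose, and the median was -1.05. They were Bbc3 (-2.49), a death gene of the BCL2 family, Trp53inp1 (-2.12), Sesn2 (-2.03) and Mdm2 (-1.05), the ligase that degrades p53. Of 14 heat shock genes 1 fell, the co-chaperone gene Dnajb1, from 364.5 to 211.3 CPM (-0.80, adjusted p = 0.00645), with a list median of -0.35. Of 14 ERK feedback genes 1 rose, the ERK phosphatase gene Dusp5 (1.77), and the median was 0.48. None of the 10 EGR corepressor and SRF partner genes passed in edgeR with both agonists (1 call by DESeq2, median -0.01). Of them 2 had an unadjusted p under 0.05, as did 944 of all 13566 genes. The corepressor gene Nab2 rose after rivenprost (1.56, adjusted p = 0.0205) and after misoprostol (1.48, adjusted p = 0.0497). These comparisons share the vehicle libraries.

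The genes whose profiles were nearest to each member over the 20 HSC libraries were found by the root mean square (RMS) difference of centred log2 CPM, among genes with a mean of at least 5 CPM. Ier2 was nearest to the AP-1 gene Junb (RMS difference 0.206), followed by Ier3 (0.214) and Hmga2 (0.244), while the SD of Ier2 itself was 0.401. Ier3 was nearest to Ier2, Mat2a (0.235) and Fam110a (0.247). Ier5 was nearest to Rhob (0.305), Cited2 (0.340) and Dnajb1 (0.352), the heat shock gene named above, with an SD of its own of 0.639. Egr1 was nearest to Dusp1 (0.549), Elmsan1 (0.616) and Fancf (0.616) with an SD of 0.9753. For Egr2 (nearest Gm608, 2.20), Egr3 (Ints1, 1.58) and Ier5l (Kmt2a, 0.622) the distances were larger. These distances were taken over the same libraries for every gene, with the depths and marker differences given above, and are a description.

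In stroma, irradiation raised 1 of the 7 genes in vehicle mice, Ier5, where 0.771% of all genes passed. Its non-irradiated libraries held 39.8, 40.8, 47.3 and 48.6 CPM, and the irradiated libraries held 92.1, 102, 104.2 and 125.6 CPM. The groups were apart and narrow, at 44.1 ± 4.48 and 106 ± 14.1 CPM, and the log2 rise was 1.26 with an SE of 0.20 (adjusted p = 0.000436). DESeq2 called Ier5 alone as well, where it called 1.64% of all genes. Leaving out any 1 of the 8 libraries kept the call (adjusted p at most 0.00485), and the authors' deposited table gives an FDR of 4e-07. Ier3 was also higher in every irradiated library, at 35.3, 46.0, 46.5 and 52.97 CPM against 9.91, 25.2, 25.4 and 33.2 (log2 difference 0.95, 95% interval 0.27 to 1.62), and it did not pass (adjusted p = 0.272). Egr1 stood at 235.4 ± 114.4 against 124.5 ± 79.6 CPM (0.92, adjusted p = 0.442), Egr2 at 4.99 ± 4.43 against 1.97 ± 0.674 (1.29, adjusted p = 0.362) and Ier2 at 109.2 ± 20.8 against 72.3 ± 34.9 (0.62, adjusted p = 0.531), all with overlapping libraries. The log2 difference was 0.03 for Egr3 (95% interval -0.91 to 0.97) and -0.09 for Ier5l (-0.87 to 0.69).

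The p53 target list moved in the same comparison, with 19 of 25 genes higher and 0 lower and a median of 1.45 against -0.014 over all genes. Gdf15 rose by 4.20, Eda2r by 3.97, Tnfrsf10b, a death receptor gene, by 3.95 and Slc19a2, a thiamine transporter gene, by 3.25 on the log2 scale. Of 37 other immediate early genes 3 rose, namely Nfkbiz (1.54), Btg2 (1.23), which is itself known as a p53 target, and Junb (1.16), and none fell, with a median of 0.58. Of 14 heat shock genes none passed in edgeR or DESeq2 or had an unadjusted p under 0.05 (median 0.14). All 11 marker sums overlapped between irradiated and non-irradiated vehicle stroma. Mesenchymal stroma markers summed to 6096 to 18170 CPM (median 8013) with irradiation and 11470 to 20740 CPM (median 14400) without. Their part in the results was not tested.

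dmPGE2 without irradiation raised Egr1 and Egr3, 2 of the 7 genes where 3.76% of all genes passed. Egr1 had 38.0, 108.8, 120.8 and 230.6 CPM with vehicle and 370.8, 396.9, 488.1 and 500.7 CPM with dmPGE2. All dmPGE2 libraries were above all vehicle libraries (439.1 ± 64.9 against 124.5 ± 79.6 CPM), and the log2 rise was 1.94 with an SE of 0.40 (adjusted p = 0.00463). Egr3 had 1.66, 2.01, 2.56 and 2.78 CPM with vehicle and 8.49, 8.52, 9.13 and 13.5 CPM with dmPGE2, again without overlap (2.25 ± 0.513 against 9.90 ± 2.39), and the log2 rise was 2.14 with an SE of 0.47 (adjusted p = 0.0075). Both calls held with any 1 library left out (adjusted p at most 0.0266 for Egr1 and 0.0419 for Egr3). In a fit of these groups alone Egr1 no longer passed (adjusted p = 0.137). Egr2 (4.09 ± 1.34 against 1.97 ± 0.674 CPM, log2 difference 1.07, adjusted p = 0.265) and Ier3 (48.1 ± 6.88 against 23.4 ± 9.75, 1.04, adjusted p = 0.0766) were higher in every dmPGE2 library and did not pass, and the authors' deposited table lists Ier3 at an FDR of 0.0385. DESeq2 called Ier3 beside Egr1 and Egr3, where it called 6.39% of all genes. Ier5 stood at 44.9 ± 7.46 CPM with dmPGE2 and 44.1 ± 4.48 with vehicle, a log2 difference of 0.03 with a 95% interval of -0.37 to 0.43. The Ier2 difference was 0.60 (-0.01 to 1.21).

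In that comparison 15 of 37 other immediate early genes rose and 0 fell (median 1.04, against 0.007 over all genes). The nuclear receptor genes Nr4a3 and Nr4a1 rose by 5.33 and 4.33 on the log2 scale, and the AP-1 gene Fosl1 and the small MAF gene Maff by 3.35 and 2.73. Of 14 ERK feedback genes 4 rose and 0 fell, namely Spry4 (2.38), Spry2 (2.26), Errfi1 (1.87) and Phlda1 (1.55), with a median of 0.41. Of the 10 EGR corepressor and SRF partner genes none passed in edgeR and DESeq2 called 1 (median -0.03). An unadjusted p under 0.05 was found for 4 of them, and for 2583 of all 15168 genes. Of 25 p53 targets 3 rose and 1 fell with a median of 0.03, and the largest rise was that of the cell cycle inhibitor gene Cdkn1a (2.28). The heat shock list had 1 rise and 1 fall, Hspa1a (3.53) and Chordc1 (-0.60). Hspa1b is a close copy of Hspa1a, and how well their reads were told apart was not examined. No marker sum of the 11 separated the groups. Monocyte and macrophage markers overlapped at 1125 to 2767 CPM (median 1340) with dmPGE2 and 2074 to 3183 CPM (median 2152) with vehicle. Their part in the results was not tested. Osteoblast markers were highest in replicate 4 of non-irradiated vehicle (27090 CPM) and of non-irradiated dmPGE2 (17310 CPM), whose animal numbers also lie apart. Without both of these mice, in a fit chosen after seeing the data, Egr1 (1.68, adjusted p = 0.0303) and Egr3 (2.09, adjusted p = 0.0415) still passed.

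dmPGE2 before irradiation was read against irradiated vehicle, where 1.98% of all genes passed. None of the 7 members passed in edgeR. Of the 7, 3 had an unadjusted p under 0.05 (Egr1, Egr3 and Ier5), as did 2489 of all 15168 genes. DESeq2 called Egr3 where it called 4.42% of all genes. A block by set of consecutive animal numbers, added after seeing the data, is described in the closing section. With it 3 of the 7 passed in edgeR, where 5.5% of all genes did. Egr3 had 1.35, 2.16, 2.61 and 3.19 CPM with vehicle and 3.97, 4.61, 6.42 and 12.9 CPM with dmPGE2, without overlap (log2 difference 1.58, 95% interval 0.63 to 2.52, adjusted p = 0.0713). The authors' deposited table gives Egr3 an FDR of 0.0283 here. Egr1 stood at 464.8 ± 193 against 235.4 ± 114.4 CPM (1.07, adjusted p = 0.160). Ier5 stood at 78.4 ± 17.9 against 106 ± 14.1 CPM, a log2 difference of -0.43 (95% interval -0.83 to -0.03, adjusted p = 0.267). In the same comparison 13 of 25 p53 targets fell and 0 rose (median -1.08), among them Gdf15 (-2.37), Phlda3 (-2.07), Eda2r (-2.05) and Tnfrsf10b (-1.76). Among other immediate early genes 9 of 37 rose and 0 fell (median 0.47), led by Nr4a3 (4.15) and Nr4a1 (2.81). Creb1, the cAMP-responsive transcription factor gene of the EGR regulator list, fell by 0.54 on the log2 scale (adjusted p = 0.0123). All 11 marker sums overlapped between these groups. Monocyte and macrophage markers summed to 1202 to 2695 CPM (median 1444) with dmPGE2 and 2263 to 2820 CPM (median 2540) with vehicle. The part of these markers in the results was not tested.

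Irradiation among dmPGE2 mice gave 0 calls of 7 in edgeR and in DESeq2, and 0.0461% of all genes passed in edgeR and 0.125% in DESeq2. An unadjusted p under 0.05 was found for 1 of the 7, and for 889 of all 15168 genes. The member was Ier5, at 61.6, 64.4, 91.2 and 96.4 CPM with irradiation and 35.9, 42.3, 48.2 and 53.2 CPM without. The groups did not overlap, and the log2 difference was 0.80 (95% interval 0.40 to 1.21, adjusted p = 0.327). With the block by set 1 of the 7 passed, where 0.112% of all genes did. That fit rests on a placement of mice given in the closing section. The interaction, by which the effect of dmPGE2 differs between irradiated and non-irradiated mice, passed for 0.0264% of all genes in edgeR and 0.0989% in DESeq2. It passed for none of the 7 in edgeR or DESeq2, and the lowest unadjusted p was 0.108. Its estimate was -0.87 for Egr1 (95% interval -1.99 to 0.25), -0.56 for Egr3 (-1.87 to 0.75) and -0.46 for Ier5 (-1.02 to 0.11), so a difference in the dmPGE2 effect between irradiated and non-irradiated mice was not shown for any of them.

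**Figure D4:**
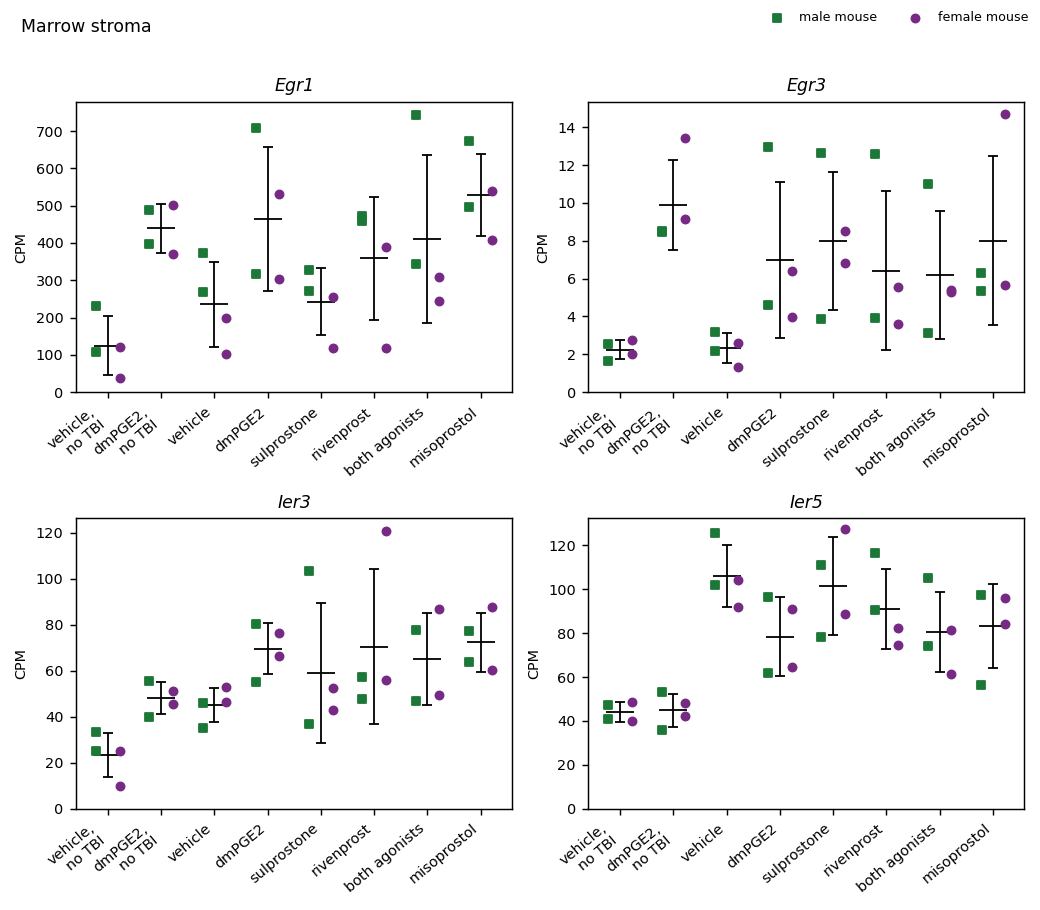
CPM of Egr1, Egr3, Ier3 and Ier5 in each stroma library, with squares for male and circles for female mice, a tick for the group mean and bars of 1 SD; groups marked no TBI were not irradiated. Ier5 sits at 35.9 to 53.2 CPM in both groups without irradiation and higher in every irradiated library, and Egr1 and Egr3 are low in vehicle without irradiation and higher after dmPGE2.

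**Figure D5:**
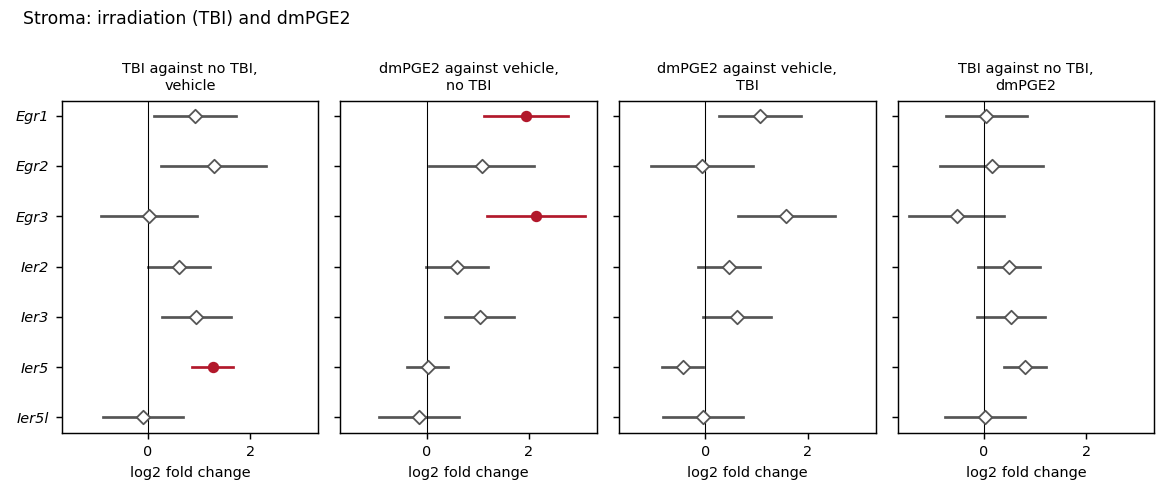
Log2 fold changes of the 7 members in 4 stroma comparisons with 95% intervals, filled red where the adjusted p is under 0.05 and open where it is not. Irradiation moves Ier5 past the test in vehicle mice, and dmPGE2 moves Egr1 and Egr3 past it in mice without irradiation.

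The receptor agonists in irradiated stroma gave no call among 28 member tests in edgeR, with 10 unadjusted p under 0.05 and 5 calls by DESeq2. Over all 15168 genes, 596, 1511, 2719 and 1669 had an unadjusted p under 0.05 with sulprostone, rivenprost, both agonists and misoprostol. All genes passed at 0.105% after sulprostone, 1.13% after rivenprost, 3.09% with both agonists and 0.916% after misoprostol. DESeq2 called Egr3 in each of the 4 comparisons and Egr1 after misoprostol, where it called 0.251%, 2.29%, 5.82% and 2.49% of all genes in the same order. With the block by set, 1 member passed with both agonists and 1 after misoprostol, where 6.07% and 1.73% of all genes did. Egr3 in edgeR stood at 2.33 ± 0.778 CPM with vehicle, 7.97 ± 3.65 after sulprostone (log2 difference 1.79, adjusted p = 0.290), 6.42 ± 4.19 after rivenprost (1.46, adjusted p = 0.1504), 6.20 ± 3.37 with both agonists (1.42, adjusted p = 0.0906) and 8.00 ± 4.48 after misoprostol (1.81, adjusted p = 0.0577). After sulprostone, rivenprost and misoprostol every Egr3 library was above every vehicle library, while with both agonists 1 library at 3.12 CPM lay under the highest vehicle library. Egr1 after misoprostol held 407.3, 497.5, 539.2 and 672.3 CPM, all above vehicle at 102.6 to 373.8 CPM (1.26, 95% interval 0.45 to 2.06, adjusted p = 0.139). Egr2 reached 11.5 ± 5.74 CPM after misoprostol against 4.99 ± 4.43 (1.30, adjusted p = 0.264).

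Ier5 in irradiated stroma stood at 101.5 ± 22.2 CPM after sulprostone, 91.0 ± 18.1 after rivenprost, 80.6 ± 18.3 with both agonists and 83.4 ± 19.1 after misoprostol, against 106 ± 14.1 with vehicle. With both agonists its log2 difference was -0.40 (95% interval -0.80 to 0.00, adjusted p = 0.282). Ier3 was at 58.9 to 72.4 CPM in group mean with the 4 agonist treatments against 45.2 ± 7.33 with vehicle. Of its 4 comparisons, misoprostol had all libraries above vehicle (log2 difference 0.68, adjusted p = 0.437). Ier2 was at 117.8 to 146.6 CPM in group mean against 109.2 ± 20.8. Ier5l after sulprostone held 3.37 to 6.001 CPM against 1.32 to 3.05 with vehicle, without overlap (1.00, adjusted p = 0.996).

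Pairs of these treatments and dmPGE2 in irradiated stroma gave 70 member tests with 0 calls in edgeR and in DESeq2 and 7 unadjusted p under 0.05. Of all 15168 genes, 96 to 2856 per pair had an unadjusted p under 0.05. Over all genes 0% passed in 6 of the 10 pairs, and 0.033%, 1.67%, 0.0132% and 1.28% passed for sulprostone against rivenprost, both agonists, misoprostol and dmPGE2. DESeq2 passed 0.936%, 4.17%, 0.574% and 4.31% of all genes in these 4 pairs, and in the others 0.119% for rivenprost against dmPGE2, 0.0264% for misoprostol against dmPGE2, 0.00659% for misoprostol against rivenprost and against both agonists, and 0% in 2. The lowest adjusted p was 0.153, for Ier5l after sulprostone against dmPGE2 (4.18 ± 1.24 against 2.02 ± 0.589 CPM). Other immediate early genes rose in 3, 9, 12 and 7 of 37 with sulprostone, rivenprost, both agonists and misoprostol, with none lower. Nr4a3 rose in all of these comparisons, by between 3.75 and 5.0 on the log2 scale, and all share the vehicle libraries. Of 25 p53 targets 12 fell with both agonists (median -0.90). Markers of monocytes and macrophages, 10 of 10 in the table, summed to 791.9 to 2034 CPM with both agonists, 1515 to 1966 after rivenprost, 1531 to 2099 after sulprostone and 909.3 to 2370 after misoprostol, against 2263 to 2820 with vehicle. Only the misoprostol range reached that of vehicle. The sum includes Vcam1, also on the mesenchymal stroma list, at a median of 546.5 CPM over all stroma libraries. The part of these markers in the results was not tested.

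Over the 32 stroma libraries, Ier5 was nearest to Nfkbib, an inhibitor of NF-kB (RMS difference 0.256), the p53 target Aen (0.261) and Sdhaf1 (0.273), with an SD of its own of 0.525. Ier2 was nearest to Zfp36 (0.245), Jund (0.274) and Junb (0.275), and Egr1 to Junb (0.473), the metallothionein gene Mt1 (0.523) and Cebpb (0.531). Egr2 was nearest to Gadd45b (0.487), Rab20 (0.538) and Cebpd (0.580). Egr3 was nearest to Sdc4 (0.469) and to Cyr61 (0.527) and Errfi1 (0.539), which are on the lists of other immediate early and ERK feedback genes. Ier3 was nearest to Rgs1 (0.343), Dyrk3 (0.400) and Zc3h12a (0.406), and Ier5l to Pvrl2 (0.406), Lzts2 (0.424) and Smad1 (0.439). Junb and Zfp36 are immediate early genes too, and no test was made on these distances.

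Sex was a term of the reported fits. Of the 7 genes none passed for sex in edgeR in either fraction, where 0.0663% of all genes passed in HSC and 2.87% in stroma, and 0 had an unadjusted p under 0.05 in HSC. In stroma the 1 member with an unadjusted p under 0.05, where 2123 of all 15168 genes had one, was Egr1. It was lower in females by 0.67 on the log2 scale (95% interval of female minus male -1.07 to -0.27, adjusted p = 0.0616). The lowest Egr1 library of each of the 8 stroma groups was replicate 4, a female mouse. The highest was from a male mouse in 7 of the groups. The exception was non-irradiated dmPGE2, where replicate 1, the other female mouse, was highest at 500.7 CPM. Since replicate 4 gave all of these lowest libraries, their order cannot tell sex from that set of mice.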

How the data were processed

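RNA-seq was measured in 52 libraries, 20 of sorted HSC and 32 of stroma. Per the labels' protocols, SMART-Seq v4 with Nextera XT served for HSC and KAPA mRNA HyperPrep for stroma. The submitters' processing notes list STAR 2.5, Subread 1.5.1 with featureCounts, the mm10 build, edgeR 3.36.0 and FastQC 0.11.5. No source used here states whether counting used the strand. The authors deposited raw counts per gene, log2 fold changes and FDR-adjusted p-values, per the file headers. A further 52 columns of log2 CPM were not used.

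The counts were fitted with edgeR 4.0.16 in R 4.3.3, with TMM scaling, robust quasi-likelihood dispersions and the terms group and sex, in one fit per fraction over all genes. All genes of each table were tested, with the Benjamini-Hochberg adjustment over all of them. Intervals are 95% intervals of the fitted log2 difference, and log2 CPM for the likeness of profiles had a prior count of 2. The code was tested on simulated data. Alternatives were DESeq2 1.42.0, its size factors in edgeR, a minimum of 1 CPM in 4 libraries, other terms, the compared groups alone and each library left out. All 7 genes are named throughout, as are up to 4 called genes of each list with the largest change and the 3 genes nearest to a member in profile. The members, lists and tests were chosen with earlier results of these data known, and the motifs with the sequences known. The labels give 1 mouse per library, so p-values measure the spread between mice. Replicate numbers follow accession order. No pair of replicates agreed within sampling noise (lowest chi-square per gene 40.8).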

Additional observations from a re-analysis of the deposited data

Results flagged for a closer look

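In 91 groups of 4 libraries, 6 held a library whose distance from the nearest other library was large against the range of its group, and chance flags about 1 group in 20. Egr3 gave 4 of these. In stroma it stood at 14.7 CPM in misoprostol replicate 1 against at most 6.30 CPM in the other libraries of the group, and at 13.5 CPM in replicate 4 of non-irradiated dmPGE2 against at most 9.13. In HSC it stood at 1.93 CPM in replicate 2 of both agonists with the others at 0, and at 0.410 CPM in misoprostol replicate 3 with the nearest at 0.0212. Egr2 stood at 2.59 CPM in HSC vehicle replicate 4, while the other 3 vehicle libraries had no count. Ier3 stood at 120.7 CPM in rivenprost replicate 1 of stroma, with the nearest library at 57.1 CPM.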

How the results depend on the processing

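Of 1477 checks of single genes under another setting, 1356 kept direction and side of the threshold, 38 gained a call, 13 lost one and 70 turned their direction. The genes that turned passed the threshold neither as reported nor in the other setting. Among the 7 genes, rivenprost in HSC gave 0 calls as reported, 1 with the range of animal numbers as a term, 1 in the compared groups alone and 2 in DESeq2. Misoprostol in HSC gave 1 call, and then 2, 0 and 4 in the same order, 2 without the 3 libraries found apart, and 0 to 2 with a library left out. Of all genes 0.361% passed for misoprostol without those 3 libraries, and 0.133% to 0.295% with a library left out. Pairs of agonists in HSC gave 2 calls, 0 in the compared groups alone, 1 without those 3 libraries and 0 to 1 in the fits without a library that lost calls. The share of all genes in these other fits of the pairs is not given here, so a loss of member calls cannot be set against it. In stroma the range term gave 2 calls for irradiation in vehicle mice (1 as reported), 4 for dmPGE2 without irradiation (2), 1 for dmPGE2 before irradiation (0), 1 for irradiation among dmPGE2 mice (0) and 1 for misoprostol (0). The range term passed 1.34%, 5.23%, 3.1%, 0.0923% and 1.34% of all genes in the same order, and in HSC 0.545% for rivenprost and 0.287% for misoprostol. The fit of the compared groups alone gave 1 for dmPGE2 without irradiation, and in HSC it also lost Ier2 with both agonists (0.80, adjusted p = 0.166). DESeq2 gave 1 each for dmPGE2, sulprostone, rivenprost and both agonists against irradiated vehicle and 2 for misoprostol. Over all genes in stroma, edgeR passed 7.59% with the block against 3.76% for dmPGE2 without irradiation, 5.5% against 1.98% for dmPGE2 before irradiation and 1.7% against 0.771% for irradiation in vehicle mice. The compared groups alone gave 0.547%, 1.29% and 0.382% in the same order, and in HSC 0.332% with both agonists against 0.545%, 0.435% after rivenprost and 0.0811% after misoprostol. The cause of these differences was not tested.

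The mice were put by animal number in 4 sets that hold 1 mouse of every group, and a replicate block by set was added after seeing the data. In stroma, non-irradiated animals 1021 and 1022 were placed with animals 788 to 793, although their numbers lie apart. Block results for comparisons with non-irradiated mice rest on that placement. Same-set libraries correlated above 0.1 in 32.5% of pairs in HSC and 86.6% in stroma. Of the libraries, 18 of 20 and 32 of 32 correlated best with their own set, which was seen in the data. The sets themselves follow runs of consecutive animal numbers in the labels, each of 1 sex, except for the placement of animals 1021 and 1022. What the mice of a set shared is not stated. With the block the calls were 1 for rivenprost and 2 for misoprostol in HSC, where 0.538% and 0.295% of all genes passed. In stroma they were 2 for irradiation in vehicle mice, 4 for dmPGE2 without irradiation, 3 for dmPGE2 before irradiation, 1 for irradiation among dmPGE2 mice (0.112% of all genes), 1 for both agonists (6.07%) and 1 for misoprostol (1.73%). The block called Ier5 (-0.46, adjusted p = 0.0240) and Egr1 (1.07, adjusted p = 0.0401) for dmPGE2 before irradiation.

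The values that turned are log2 differences. With a library left out, HSC values against vehicle ran for Egr3 from -2.48 to 2.16 after sulprostone, from -0.068 to 4.01 after rivenprost, from -6.87 to 2.14 with both agonists and from -5.66 to 1.00 after misoprostol, for Egr2 from -0.83 to 8.35 after rivenprost, and for Ier5l from -0.79 to 0.24 after misoprostol. Egr2 and Egr3 were near 0 counts there, and their fitted values depend on the prior count. Egr3 with both agonists was -1.62 in the compared groups alone and -0.0027 without the 3 libraries. In stroma with a library left out, irradiation in vehicle mice gave -0.13 to 0.22 for Egr3 and -0.37 to 0.091 for Ier5l, and dmPGE2 without irradiation -0.058 to 0.14 for Ier5 and -0.43 to 0.013 for Ier5l. dmPGE2 before irradiation gave -0.39 to 0.62 for Egr2 and -0.21 to 0.20 for Ier5l. Irradiation among dmPGE2 mice gave -0.22 to 0.27 for Egr1, -0.16 to 0.41 for Egr2 and -0.12 to 0.23 for Ier5l. Sulprostone gave -0.11 to 0.27 for Egr1, -0.033 to 0.23 for Ier2, -0.057 to 0.55 for Ier3 and -0.21 to 0.062 for Ier5. Both agonists gave -0.61 to 0.39 for Egr2 and -0.092 to 0.38 for Ier5l, and the interaction -0.39 to 0.11 for Ier2 and -0.063 to 0.39 for Ier5l. With the range term and with the block, Egr2 was 0.017 and 0.012 for dmPGE2 before irradiation, and Egr1 -0.010 and -0.0046 for irradiation among dmPGE2 mice. Ier5l in that last comparison was -0.0125 with DESeq2 size factors, -0.0099 without animals 1021 and 1022, -0.0132 in the compared groups alone and -0.0126 in DESeq2.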
